A study of Homo sapiens with 9 samples.

Results

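The genes described here encode the 7SK RNA, the proteins that hold it in its particle, and the kinase that the particle restrains: RN7SK, HEXIM1, HEXIM2, LARP7, MEPCE, CDK9, CCNT1 and CCNT2. These 8 genes were chosen by name, out of 22109 genes with a probe set of a single symbol, and each had 1 such probe set on the array. They were proposed with results of the same arrays known, so their differences between groups are given as a description with standard errors and without p-values. RNA came from MDA-MB-231, an established human breast cancer line taken from a pleural effusion, on 9 whole-transcript arrays. Untreated cells formed the control group (n = 3). A second group (n = 3) had received YM-155 (sepantronium bromide), a compound developed to lower survivin expression, in steps that summed to 83 ng/ml over 8 h, and was taken before any cell death was visible. The third group (n = 3) had received 14.6 ng/ml, its LC50, for 20 h. Dose and time differed together, the drug stock was in DMSO, and no vehicle or time was given for the controls. Whether replicates were separate cultures is not stated, so the spread between them may be technical.

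Values are RMA levels on the log2 scale, where 1 unit is a doubling, and levels of different genes are not compared because probes differ in brightness. Array medians spanned less than 0.1, and 3 arrays a group set the precision. Of 6 mesenchymal markers of the line, 5 (VIM, CD44, CAV1, AXL and MSN) had a mean at or above the median over genes of 3.89, and SPARC did not. At or above it were also 4 of 8 luminal markers (GATA3, CDH1, EPCAM and KRT8), the endothelial marker KDR and the leukocyte marker CD68. The level of CD68 averaged 9.43 in controls, 9.52 at 8 h and 10.1 at 20 h. Of all these markers, CAV1 fell in both treated groups and CD44 and CDH1 rose at 8 h, in limma against control. At 20 h KDR fell and CD68 rose. The part of these markers in the results was not tested. The leukocyte marker PTPRC stayed between 1.74 and 1.85 and CD3E between 1.67 and 2.20. The summed level of the 5 leukocyte markers measured was 18.6 to 19.1 in controls, 19.2 to 19.4 at 8 h and 19.8 to 20.7 at 20 h, with 2 of them higher at 20 h in limma, CD14 and CD68. Control replicate 3 stood apart from the other controls: its differences from them had SDs of 0.312 and 0.313 over genes above the median level, against 0.187 between those 2. Results that turn on it are given without it.

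Transcription by RNA polymerase II often stops shortly after its start, and release into elongation needs P-TEFb, the kinase made of CDK9 and a cyclin T. A large share of P-TEFb is kept inactive in a particle built on the 7SK RNA, in which HEXIM1 or HEXIM2 binds the RNA and inhibits the kinase, LARP7 holds the end of the RNA and MEPCE caps its start. Stress, DNA damage and inhibitors of transcription are known to free P-TEFb from this particle, and HEXIM1 transcription is known to respond to such release. In breast cancer cells HEXIM1 was also described as a protein that estrogen lowers and that binds the estrogen receptor. ESR1, the luminal marker that encodes this receptor, lay between 2.59 and 3.25 on these arrays, below the median over genes.

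Promoter sequence was at hand for 7 of the 8 genes, in 12 entries of 300 bases from RefSeq (GRCh38.p14). The 120 bases before a start site are shown for HEXIM1, which was higher at 20 h, for the cyclin pair CCNT1 and CCNT2, which moved in opposite directions at 20 h against control, and for 3 genes that share a short element. Each is written 5′ to 3′ on the gene's strand, and capitals mark any of 5 motifs, searched on both strands. The motifs were TATAAA (the TATA box core), ACTACAA (core of the element bound by ZNF143, a factor that also acts at the 7SK gene), CCGGAAG (an ETS core), TGACG (a cAMP response half-site) and CACGTG (an E-box), chosen after the sequences were read.
HEXIM1, chr17:45148355-45148474, plus strand: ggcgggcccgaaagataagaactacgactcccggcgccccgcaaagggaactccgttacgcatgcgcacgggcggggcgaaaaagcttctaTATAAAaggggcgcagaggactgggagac
HEXIM2, chr17:45161755-45161874, plus strand: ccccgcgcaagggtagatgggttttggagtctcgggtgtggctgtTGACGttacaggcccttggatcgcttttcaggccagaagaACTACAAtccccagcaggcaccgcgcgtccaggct
LARP7, chr4:112637382-112637501, plus strand: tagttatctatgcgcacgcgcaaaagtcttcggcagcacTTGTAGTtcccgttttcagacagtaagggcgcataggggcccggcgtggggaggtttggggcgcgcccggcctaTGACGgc
CDK9, chr9:127785914-127786033, plus strand: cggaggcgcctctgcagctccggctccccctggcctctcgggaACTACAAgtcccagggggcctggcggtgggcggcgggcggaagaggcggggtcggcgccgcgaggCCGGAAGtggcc
CCNT1, chr12:48716708-48716827, minus strand: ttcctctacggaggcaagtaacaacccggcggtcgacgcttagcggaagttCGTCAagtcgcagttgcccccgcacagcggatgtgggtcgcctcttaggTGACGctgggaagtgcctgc
CCNT2, chr2:134918702-134918821, plus strand: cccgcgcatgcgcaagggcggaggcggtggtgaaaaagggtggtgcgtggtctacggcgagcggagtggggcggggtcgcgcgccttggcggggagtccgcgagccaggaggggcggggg

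Among the 12 entries, TATAAA was found in that of HEXIM1 alone, from base -29 to base -24 before the start, and 11.5% of all 35116 promoter entries of this length hold those letters. ACTACAA was found in entries of HEXIM2 (from -35), LARP7 (from -81, on the other strand) and CDK9 (from -77), against 2.77% of all entries. CCNT2 held none of the 5 motifs within its 300 bases. The CCNT1 entry shown held the ETS core, the half-site and the E-box, the first and last of them upstream of the stretch shown. The other entry of CCNT1 held none of the motifs. The half-site was also found in entries of HEXIM2, LARP7 and MEPCE, and the E-box in an entry of MEPCE. CDK9 also held the ETS core, from -12 to -6. The ETS core occurs in 10.3% of all entries, the half-site in 24.6% and the E-box in 7.26%. These matches are letters in a window and were not measured as binding. HEXIM1 and HEXIM2 lie beside each other on chromosome 17, with 1 annotated gene start between theirs, that of the antisense gene HEXIM2-AS1.

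RN7SK, the RNA scaffold itself, had the widest range of the 8 genes and was far higher at 20 h. Its probe set (17009627) read 9.22, 9.44 and 9.56 on the control arrays, 9.11, 9.16 and 8.73 at 8 h, and 11.49, 11.59 and 11.59 at 20 h. All 20 h arrays lay above all others, and all 8 h arrays lay just below all controls. Group means were 9.41 ± 0.17 in controls, 9.0 ± 0.23 at 8 h and 11.56 ± 0.06 at 20 h (SD, n = 3). The 20 h mean exceeded the control mean by 2.15 (SE 0.13), which is 4.44-fold, and the 8 h mean by 2.56 (SE 0.13), which is 5.90-fold. Ordered from the largest rise, RN7SK stood at place 84 of the 22109 genes at 20 h against control and at place 13 at 20 h against 8 h. The 8 h difference from control was -0.41 (SE 0.13), a level 1.33-fold lower. It was not called in limma, and was called in 4 of the 19 alternatives. Across the 19 alternative analyses the 20 h difference ranged from 2.06 to 2.23 and the 8 h difference from -0.50 to -0.28. RNA abundance cannot tell more synthesis from slower decay, and in bulk RNA fewer cells with a transcript cannot be told apart from less of it per cell.

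**Figure D1:**
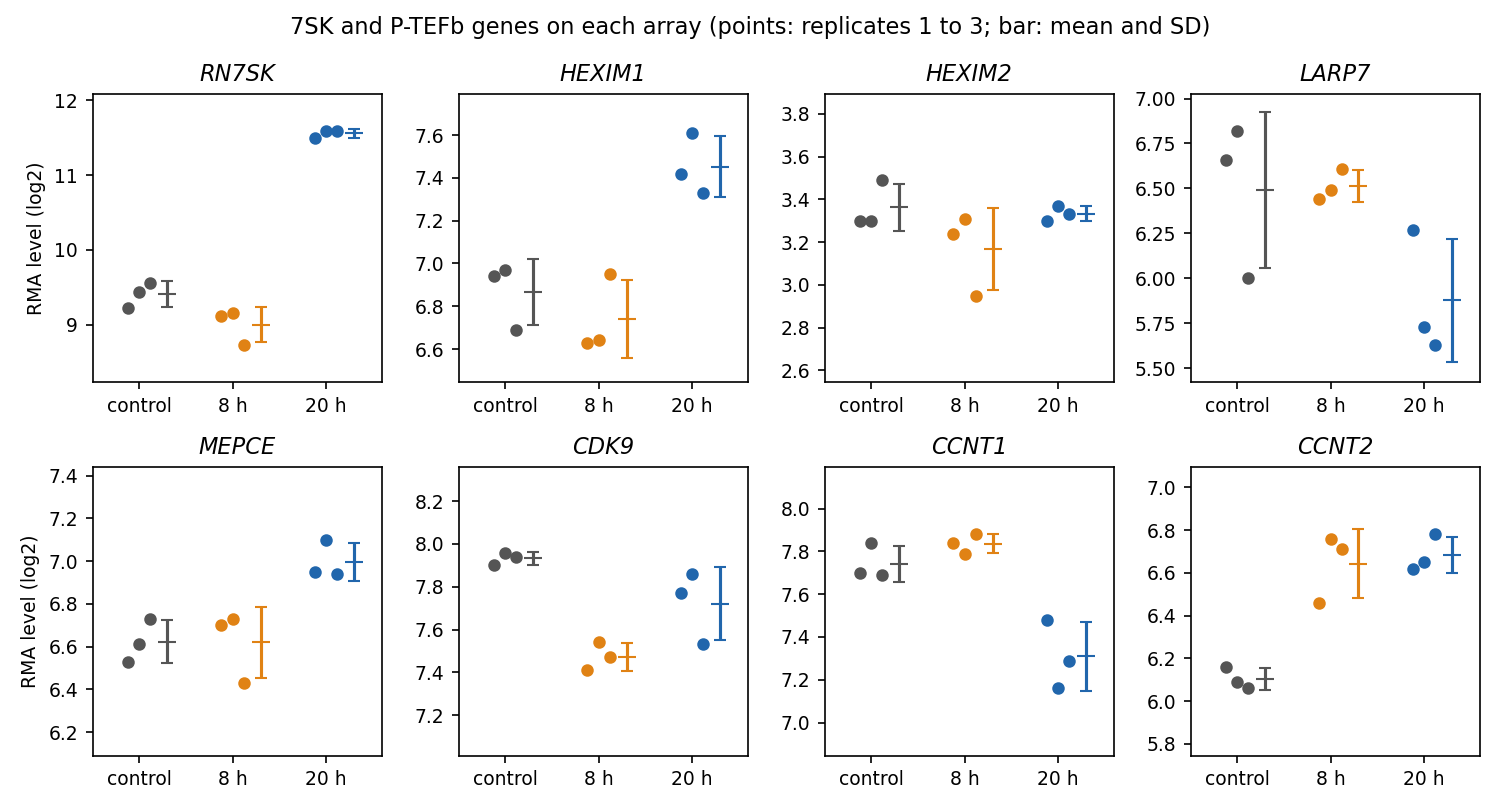
RMA level (log2, each panel with its own axis) of the 8 genes on every array, with points for replicates 1 to 3 of control, 8 h and 20 h and a bar for the mean and SD beside them. RN7SK reaches 11.49 to 11.59 at 20 h against 9.22 to 9.56 in controls, CCNT2 is higher in both treated groups, and CDK9 is lowest at 8 h.

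The genome holds many near copies of 7SK, and 9 probe sets carried the symbol of a numbered 7SK pseudogene. Their mean levels lay between 1.24 and 3.26, so none reached the median over genes. They did not follow RN7SK: at 20 h against control none of the 9 rose in limma, 2 of them lay above control at an unadjusted p under 0.05, 1 fell, and the median difference was 0.02. In limma 13.1% of all genes were higher and 17.2% lower there. The 3 brightest were RN7SKP9, RN7SKP8 and RN7SKP3. RN7SKP9 fell by 1.20 at 20 h (SE 0.18, limma adjusted p = 0.000484), and RN7SKP8 and RN7SKP3 differed by 0.22 (SE 0.12) and 0.01 (SE 0.32). How far RNA of these copies adds to the RN7SK probe set was not tested.

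RN7SK is made by RNA polymerase III from a promoter that lies outside the transcript, and 7 other products of this polymerase were measured under a single symbol. At 20 h against control, 5 of the 7 rose and none fell (5 and 0 at an unadjusted p under 0.05), with a median difference of 0.73 against 0.03 over all genes. Over all genes 13.1% were higher and 17.2% lower. Only 4 of the 7 had a mean at or above the median over genes of 3.89. The vault RNAs VTRNA1-2 and VTRNA2-1 had means of 2.35 and 3.65, below it. RPPH1 lay just below it, with a mean of 3.892 against 3.8923. RMA compresses low levels. RNU6ATAC, the U6atac RNA of the minor spliceosome, read 6.01, 6.22 and 6.80 in controls, 6.54, 6.60 and 6.12 at 8 h, and 8.16, 8.26 and 8.22 at 20 h. It rose by 1.87 at 20 h (SE 0.19, limma adjusted p = 3.83e-05), and its other probe set gave 1.87 as well. RMRP and RPPH1, the RNA parts of RNase MRP and RNase P, share the outside type of promoter with RN7SK and rose by 0.28 (SE 0.08, limma adjusted p = 0.0281) and 0.73 (SE 0.17, limma adjusted p = 0.00771). The vault RNAs, which have promoter elements inside the transcript, divided: VTRNA1-1 and VTRNA1-2 rose by 0.94 and 1.26, while VTRNA1-3 and VTRNA2-1 differed from control by -0.41 (SE 0.22) and -0.43 (SE 0.23) at 20 h. These latter RNAs were the 2 of the 7 that fell at 8 h, VTRNA1-3 by 1.25 (SE 0.22, limma adjusted p = 0.00521) and VTRNA2-1 by 1.57 (SE 0.23, limma adjusted p = 0.0017). None of the 7 rose at 8 h, also at an unadjusted p under 0.05. At 8 h 5.93% of all genes were higher and 6.28% lower in limma. From 8 h to 20 h all 7 were higher in limma, as was RN7SK, by 0.36 for RMRP to 1.79 for RNU6ATAC. In that comparison 8.95% of all genes were higher and 13.6% lower. Without 8 h replicate 2, 1 of the 7 fell at 20 h against control. On leaving out 1 array, 4 to 5 were higher at 20 h against control and 6 to 7 at 20 h against 8 h. The lowest count over the alternatives at 20 h against 8 h was 5.

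**Figure D2:**
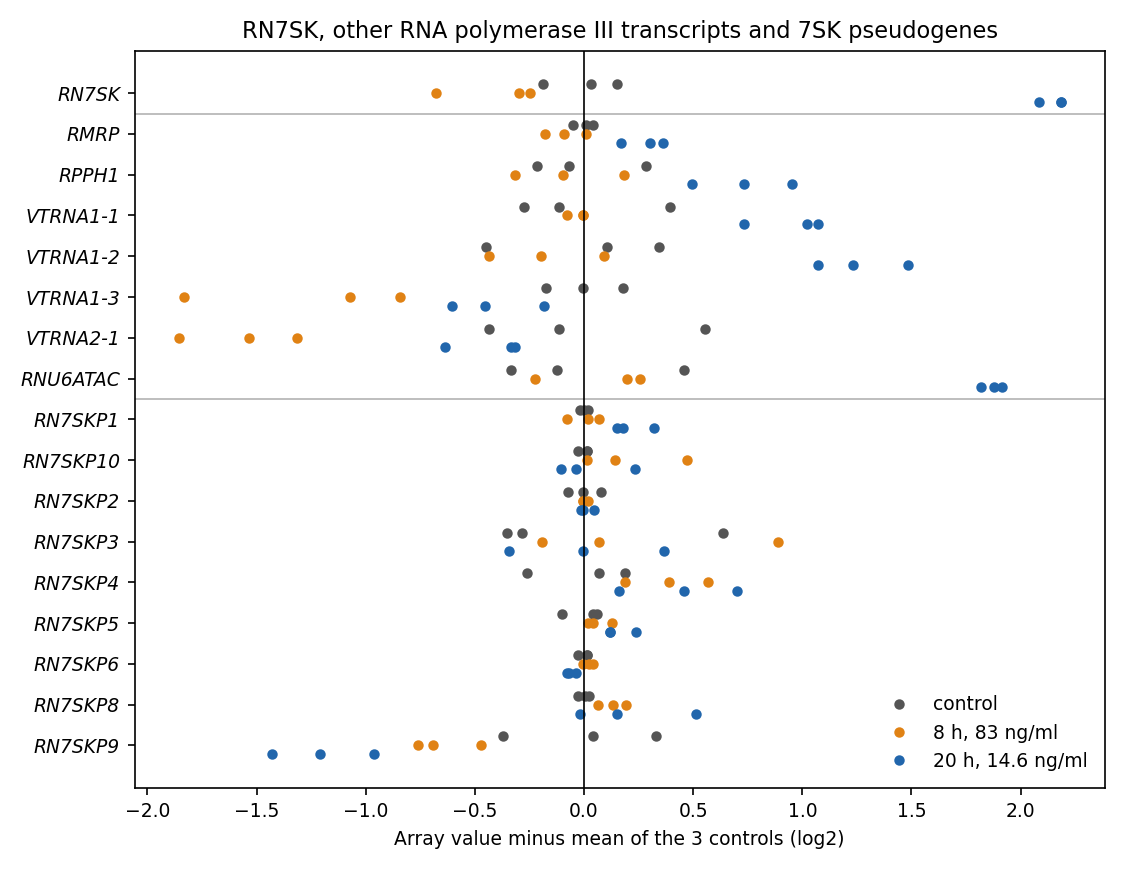
Value on each array minus the mean of the 3 controls (log2) for RN7SK, 7 other RNA polymerase III transcripts and 9 probe sets of 7SK pseudogenes, with grey points for controls, orange for 8 h and blue for 20 h. RN7SK and RNU6ATAC lie furthest right at 20 h, VTRNA1-3 and VTRNA2-1 lie left at 8 h, and RN7SKP9 lies left in both treated groups.

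HEXIM1, which inhibits the kinase when bound to 7SK, was higher at 20 h. Its levels were 6.94, 6.97 and 6.69 in controls, 6.63, 6.64 and 6.95 at 8 h, and 7.42, 7.61 and 7.33 at 20 h. The 20 h arrays all lay above the other arrays, and control and 8 h arrays overlapped. The 20 h mean of 7.45 ± 0.14 (SD, n = 3) exceeded the control mean of 6.87 ± 0.16 by 0.59 (SE 0.12). The 8 h difference from control was -0.13 (SE 0.12), and that of 20 h from 8 h was 0.71 (SE 0.12). HEXIM2, its neighbour and paralogue, is able to take its place in the particle. It lay at 3.30, 3.30 and 3.49 in controls, 3.24, 3.31 and 2.95 at 8 h, and 3.30, 3.37 and 3.33 at 20 h, and was the 1 member whose mean (3.29) was under the median over genes. Its groups overlapped in all 3 comparisons, with a difference of -0.03 (SE 0.10) at 20 h, and a dim probe set such as this can hide a change.

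The other proteins of the core particle differed in direction at 20 h. MEPCE, the enzyme that methylates the 5′ end of 7SK, read 6.53, 6.61 and 6.73 in controls, 6.70, 6.73 and 6.43 at 8 h, and 6.95, 7.10 and 6.94 at 20 h. Its 20 h arrays were above all others, by 0.37 over control (SE 0.10, 1.30-fold) and 0.38 over 8 h (SE 0.10), and the 8 h mean was level with control (difference 0.00, SE 0.10). LARP7, which binds and protects the 3′ end of 7SK, read 6.66, 6.82 and 6.0 in controls, 6.44, 6.49 and 6.61 at 8 h, and 6.27, 5.73 and 5.63 at 20 h. Control replicate 3 and 20 h replicate 1 made these groups overlap, while every 20 h array was below every 8 h array. The difference from control was -0.62 at 20 h (SE 0.22, not called) and 0.02 at 8 h (SE 0.22). Without control replicate 3 the 20 h difference of LARP7 was -0.86. LARP7 had the widest replicate spread of the 8 genes, with SDs of 0.44 in controls and 0.34 at 20 h.

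CDK9, the kinase subunit, was lower at 8 h. It read 7.90, 7.96 and 7.94 in controls, 7.41, 7.54 and 7.47 at 8 h, and 7.77, 7.86 and 7.53 at 20 h. No treated array reached a control array, and the 8 h and 20 h arrays overlapped. The 8 h mean of 7.47 ± 0.06 (SD, n = 3) was below the control mean of 7.93 ± 0.03 by 1.37-fold (difference -0.46, SE 0.09). At 20 h the difference was -0.21 (SE 0.09, not called, nor in any of the 19 alternatives), and between the treated groups it was 0.25 (SE 0.09).

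The cyclin partners differed in direction at 20 h against control. CCNT1, the main partner of CDK9 in many cells, read 7.70, 7.84 and 7.69 in controls, 7.84, 7.79 and 7.88 at 8 h, and 7.48, 7.16 and 7.29 at 20 h. Control and 8 h arrays overlapped (difference 0.09, SE 0.09), and all 20 h arrays lay below both, with differences of -0.44 (SE 0.09) from control and -0.53 (SE 0.09, 1.44-fold) from 8 h. CCNT2, the alternative partner, read 6.16, 6.09 and 6.06 in controls, 6.46, 6.76 and 6.71 at 8 h, and 6.62, 6.65 and 6.78 at 20 h. All 6 treated arrays were above all controls, by 0.54 at 8 h (SE 0.09, 1.46-fold) and 0.59 at 20 h (SE 0.09). The treated groups overlapped, with a difference of 0.04 (SE 0.09).

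**Figure D3:**
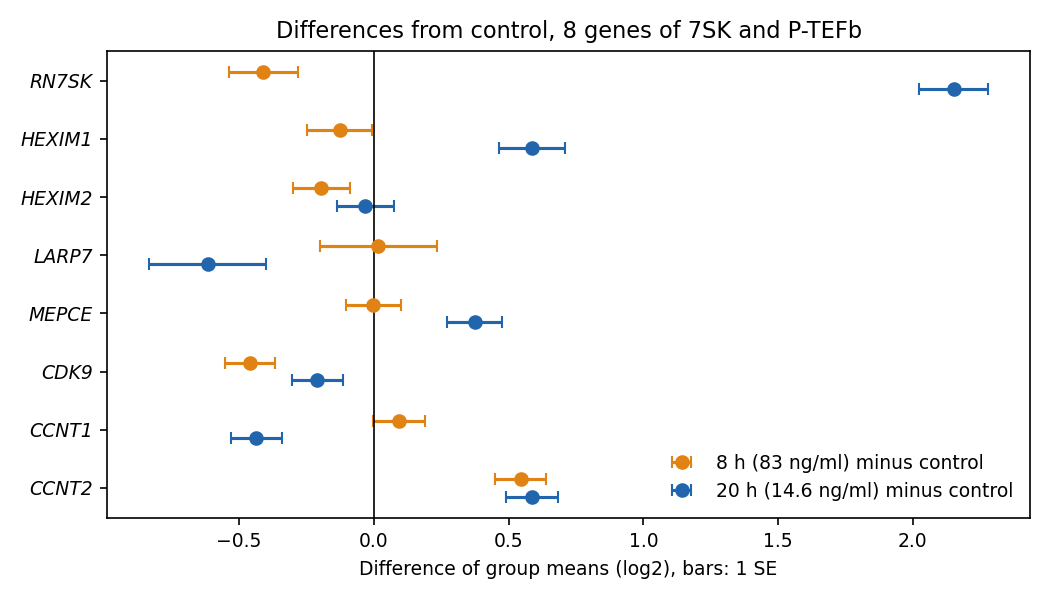
Difference of the group mean from the control mean (log2) for the 8 genes, with bars of 1 SE, orange for 8 h and blue for 20 h. RN7SK at 20 h stands at 2.15, apart from the other values, which lie between -0.62 and 0.59.

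By limma's adjusted p under 0.05 over all genes, 2 of the 8 members were called at 8 h, CCNT2 higher and CDK9 lower, where 12.2% of all genes were called (5.93% higher and 6.28% lower). At 20 h against control 5 of 8 were called, RN7SK, HEXIM1, MEPCE and CCNT2 higher and CCNT1 lower, where 30.3% of all genes were called (13.1% higher and 17.2% lower). At 20 h against 8 h 4 of 8 were called, RN7SK, HEXIM1 and MEPCE higher and CCNT1 lower, where the share was 22.6% (8.95% and 13.6%). Groups did not overlap for 3 members at 8 h against control, 6 at 20 h against control and 5 at 20 h against 8 h, beside 27.4%, 40.6% and 38.3% of all genes. Over all genes 1310 were higher and 1388 lower at 8 h, and 1143 and 1868 after repeated quantile normalization. The median difference of the 8 was -0.06, 0.17 and 0.21 in these comparisons, against 0.00, 0.03 and 0.02 over all genes. Of the 8 members, 7 had a mean at or above the median over genes, and a larger share was called with only such genes kept. Both comparisons with control share the same controls, and nothing is read from these counts, since the genes were proposed from the same data. The call of MEPCE at 20 h against control was lost on leaving out 20 h replicate 2 or either of control replicates 1 and 2, its call at 20 h against 8 h was lost without 8 h replicate 3 or 20 h replicate 2, and LARP7 became lower by that call without control replicate 3 or 20 h replicate 1.

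Other genes of the pathway were taken as 11 lists of 135 genes, of which 113 had a probe set of a single symbol. The lists were chosen with earlier results of these data known, so their counts and adjusted p-values are descriptions. The shares of all genes given beside them cover 22109 genes, of which 11055 had a mean at or above the median level. In most lists every measured gene did. With only genes at or above that level kept, a larger share was called in each direction and comparison. The shares of all genes are therefore a low background for these lists. Of 10 genes of the super elongation complex, which brings P-TEFb to paused polymerase, 4 rose at 8 h and 6 at 20 h, where 5.93% and 13.1% of all genes were higher. None and 1 were lower, beside 6.28% and 17.2% of all genes, 6 and 3 were not called, and the medians were 0.16 and 0.63. No gene of it lay below control at an unadjusted p under 0.05 at 8 h. ELL, an elongation factor, rose by 0.90 at 8 h (SE 0.18, limma adjusted p = 0.0087) and by 1.14 at 20 h (SE 0.18, limma adjusted p = 0.000683). The scaffold AFF4 rose by 0.68 and 0.65, ELL2 by 0.62 and 0.76, and EAF1, a partner of ELL, by 0.51 and 1.08, while MLLT3, a reader of acetylated histones, fell by 0.42 at 20 h. In the 4 measured genes of the pausing factors DSIF and NELF, none changed at 8 h (0 above and 1 below control at an unadjusted p under 0.05). At 20 h SUPT5H, the large subunit of DSIF, rose by 0.74 (SE 0.13, limma adjusted p = 0.00172), and without control replicate 3 the count was 2 of the 4.

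Among 9 measured factors that recruit P-TEFb or free it from 7SK, 1 rose at 8 h and 3 at 20 h, with none and 1 lower (1 below control at an unadjusted p under 0.05 at 8 h). The shares of all genes were 5.93% higher and 6.28% lower at 8 h, and 13.1% and 17.2% at 20 h. JMJD6, a nuclear oxygenase, rose by 0.78 at 8 h and by 0.91 at 20 h (SE 0.08, limma adjusted p = 9.55e-06). BRD2, which binds acetylated histones, rose by 1.08 at 20 h (SE 0.11, limma adjusted p = 4.02e-05), and 7 of its 8 probe sets were higher. PPM1A, a phosphatase, fell by 0.59 at 20 h. Without control replicate 3, 2 of this list rose at 8 h. Of 6 other proteins that bind 7SK, RBM7 rose and none fell at 8 h, also at an unadjusted p under 0.05, and 1 rose and 3 fell at 20 h. RBM7, an RNA-binding protein of the nuclear exosome targeting complex that is known to bind 7SK after genotoxic stress, rose by 1.06 at 8 h (SE 0.10, limma adjusted p = 0.000103) and by 0.99 at 20 h (SE 0.10, limma adjusted p = 2.79e-05). SYNCRIP and HNRNPR, which bind the 7SK that is free of P-TEFb, fell at 20 h by 0.57 and 0.49, and the helicase DHX9 fell by 0.51. The 6 other LARP family genes gave no call against control in limma at either time (0 at 8 h and 1 at 20 h at an unadjusted p under 0.05).

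Of 13 genes for other transcription kinases, their cyclins and the Mediator kinase module, 5 rose at 8 h and 5 at 20 h, with none and 2 lower (2 below control at an unadjusted p under 0.05 at 8 h). Beside these counts, 5.93% of all genes were higher and 6.28% lower at 8 h, and 13.1% and 17.2% at 20 h. CCNL1, a cyclin of the CDK11 kinases, rose by 1.00 and 1.33, although its other, dim probe set differed by -0.14 in each case. CDK13 rose by 0.86 and 0.57 and its partner CCNK by 0.57 and 0.33. CDK7, the kinase of the initiation factor TFIIH, rose by 0.43 and 0.85. On leaving out any 1 of control replicates 1 and 2 and 20 h replicates 2 and 3, 1 gene of this list rather than 2 was lower at 20 h.

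The Integrator subunits, which end short transcripts and process small nuclear RNAs, fell in 6 of 14 genes at 8 h and 6 at 20 h, with none and 1 higher (1 above control at an unadjusted p under 0.05 at 8 h). Over all genes 6.28% were lower and 5.93% higher at 8 h, and 17.2% and 13.1% at 20 h. All 14 subunits had a mean at or above the median level, where the shares were larger, so these figures understate the background. INTS2 fell by 0.59 and 1.20, INTS8 by 0.61 and 1.03 and INTS10 by 0.58 and 0.73. The 8 h call of INTS2 ended in 10 of 19 alternatives, among them without any 1 of the treated arrays or of control replicates 1 and 2, and that of INTS8 ended in 6, among them without control replicate 1 or 2 or 8 h replicate 1 or 2. On leaving out any 1 of control replicates 1 and 2 and 8 h replicates 1 and 3 the 8 h count was 3, and it was 1 without 8 h replicate 2. Among 11 genes of the PAF1 complex and the elongation chaperones, 1 rose and 1 fell at 8 h, and 1 rose and 4 fell at 20 h. SUPT16H, a subunit of the histone chaperone FACT, fell by 0.46 at 8 h and by 1.30 at 20 h (SE 0.08, limma adjusted p = 1.12e-06), and LEO1 fell by 0.68 at 20 h. RTF1 was the gene that rose at 8 h, a call that ended in 11 of 19 alternatives, among them without any 1 control or 8 h array or 20 h replicate 1. SKIC8 fell by 0.59 at 20 h, and its dimmer probe set differed by -0.29 (SE 0.12). The gene that rose at 20 h, TCEA2, was no longer called without control replicate 1 or 2 or 20 h replicate 2 or 3, and without control replicate 3 the count was 2, as was the count that fell at 8 h.

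**Figure D4:**
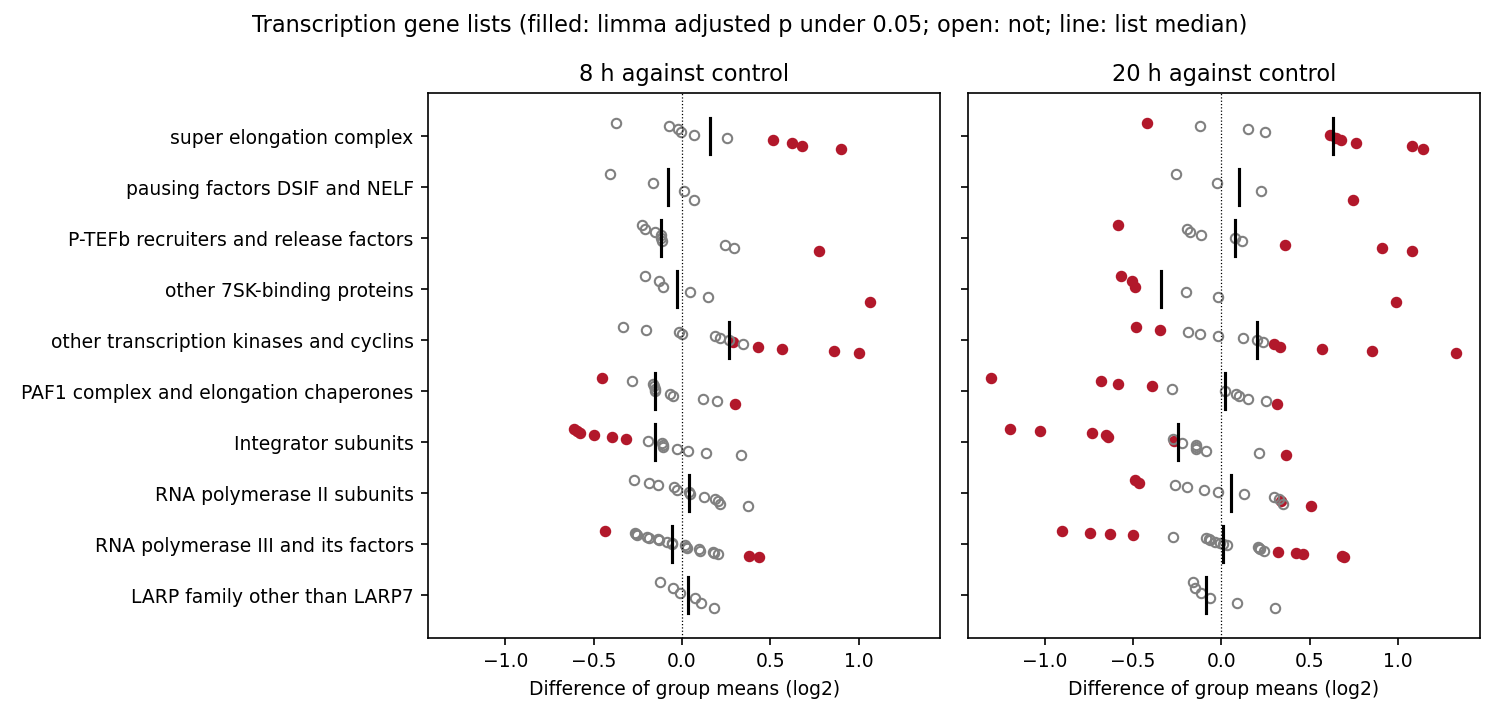
Difference of group means from control (log2) for each measured gene of 10 lists, at 8 h in the left panel and 20 h in the right, filled where limma's adjusted p was under 0.05, with a line at each list's median. The super elongation complex has a median of 0.63 at 20 h and the Integrator subunits one of -0.24.

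Of 12 core subunits of RNA polymerase II, none was called in limma at 8 h (1 above and 0 below control at an unadjusted p under 0.05), and 2 rose and 2 fell at 20 h, where 30.3% of all genes were called. POLR2C rose by 0.50 at 20 h, and POLR2B and POLR2D fell by 0.49 and 0.47. Without control replicate 3, 2 rose at 8 h and 5 at 20 h, and 1 rose at 20 h on leaving out control replicate 2 or either of 20 h replicates 1 and 2. Of 21 genes for RNA polymerase III, which makes 7SK, and its factors, 2 rose and 1 fell at 8 h. At 20 h 5 rose and 4 fell, and the medians were -0.06 at 8 h and 0.01 at 20 h. Among the 5 was MAF1, a repressor of this polymerase, higher by 0.32 (SE 0.09, limma adjusted p = 0.0177). Among all genes 5.93% were higher and 6.28% lower at 8 h, and 13.1% and 17.2% at 20 h. SNAPC3, of the complex that binds the promoter type of RN7SK, fell by 0.90 at 20 h (SE 0.10, limma adjusted p = 4.79e-05), and SNAPC4 fell by 0.43 at 8 h. SNAPC2 of the same complex rose by 0.42 at 20 h (SE 0.12, limma adjusted p = 0.0231). SNAPC1 and SNAPC5 were not called against control at either time. BRF2, another factor of the list, rose by 0.46 at 20 h (SE 0.12, limma adjusted p = 0.0121). POLR3E and POLR3D rose at 20 h by 0.69 and 0.68, and POLR3F fell by 0.74. Without control replicate 1 or 2, 3 of the list rose at 20 h. The 8 h rises, of POLR3D and POLR3C, numbered 1 without control replicate 1 and 0 on leaving out control replicate 2 or either of 8 h replicates 1 and 2.

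The patterns most like 3 of the members over the 9 arrays were sought among 11048 other genes at or above the median level. For RN7SK the 5 nearest were SNORA49 (Pearson r = 0.995), RRAS (0.991), SNORA12 (0.991), SCARNA5 (0.991) and SAA1 (0.990), with 20 h differences from control of 1.13, 0.72, 1.18, 1.20 and 1.08. SNORA49, SNORA12 and SCARNA5 are small nucleolar or Cajal body RNAs, RRAS is a small GTPase and SAA1 an acute-phase protein. For HEXIM1 they were SNORD121A (0.970), TRBC2 (0.953), ZNF878 (0.953), DERL3 (0.952) and SIRT7 (0.950). For CDK9 they were ZNF200 (0.967), RN5S383 (0.953), AJUBA (0.941), PANK4 (0.940) and LOC100287834 (0.929). The 9 arrays fall into 3 groups, so each r mostly follows 3 group means and carries no p.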

How the data were processed

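Per the labels, total RNA was hybridised to Affymetrix whole-transcript arrays, and the authors made the deposited log2 values with RMA in Affymetrix Expression Console, whose version and genome build are not given in the sources used here. RMA corrects background, sets arrays to one distribution and summarises probes, which removes shifts common to all genes and compresses low levels. Of 53617 probe sets, 23558 had 1 symbol, 2155 had several and 27904 were outside the table of genes and not used here. The brightest probe set of each gene was kept, giving 22109 genes, and 3 symbols were updated. The 3 group means were fitted over all 9 arrays in limma 3.58.1 (R 4.3.3, lmFit and eBayes, 4.01 prior degrees of freedom), two-sided, with Benjamini-Hochberg adjustment over all genes and a threshold of 0.05. An exact permutation test of 3 against 3 arrays cannot give p under 0.1. The members and lists were chosen with earlier results of these data known. Named were all members, markers and the 3 brightest 7SK pseudogenes. So were up to 3 called genes with the largest change per list and comparison with control. The 5 genes most like RN7SK, HEXIM1 and CDK9 were named too. HNRNPR, MLLT3, TCEA2, CCNK at 20 h, CDK7 and EAF1 at 8 h and POLR3D at 20 h were added after their values were seen. So were RMRP, RPPH1, SNAPC1, SNAPC2, SNAPC5, BRF2 and MAF1. Alternatives were a level filter, uncollapsed or averaged probe sets, repeated quantile normalization, centring, 2-group fits, array weights, a trended robust variance, the replicate number as a block and leaving out each array; counting 8 h replicates 1 and 2 as 1 was added after seeing the data. On data simulated for 20 h against control over 22109 genes, 100 genes were changed by a log2 size of 1 and 100 by 0.5. Of these, 96.0% and 44.0% were recovered. In the data 30.3% of genes were called in that comparison, so the recovered shares do not carry over to it. Promoters came from RefSeq's table. Python 3.11.15, pandas 2.3.3 and matplotlib 3.10.9 made tables and figures.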

Additional observations from a re-analysis of the deposited data

Results flagged for a closer look

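RN7SK lay on opposite sides of the controls in the treated groups: every 8 h array was below every control (difference -0.41) and every 20 h array above every control. The 8 h difference was not called in limma, and 27.4% of all genes had groups without overlap at 8 h against control. Between the treated groups RN7SK was called higher at 20 h in limma, by 2.56 (SE 0.13), given as a description because the gene was proposed from these arrays. Each of the following genes differed between the treated groups in limma at an adjusted p under 0.05, so that its difference from control depended on the group. Dose and time cannot be told apart in any of them.

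RNA polymerase III transcripts were higher at 20 h than at 8 h by 1.79 (RNU6ATAC), 1.44 (VTRNA1-2), 1.14 (VTRNA2-1), 0.97 (VTRNA1-1) and 0.84 (VTRNA1-3). VTRNA1-2 and VTRNA2-1 had means below the median over genes. Of the polymerase III machinery, POLR3E was higher at 20 h by 0.59 and SNAPC4 by 0.42, while POLR3F fell by 0.77 and SNAPC3 fell by 0.72 from 8 h to 20 h. SNAPC4 was lower than control at 8 h and level with it at 20 h.

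Of the elongation factors, BRD2 was higher at 20 h than at 8 h by 0.78, SUPT5H by 0.67, EAF1 by 0.57, POLR2C by 0.46, CDK7 by 0.42 and CCNL1 by 0.33. Lower at 20 h than at 8 h were SUPT16H (-0.85), INTS2 (-0.60), LEO1 (-0.53), POLR2B (-0.53), PPM1A (-0.43), DHX9 (-0.38) and SYNCRIP (-0.36).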

How the results depend on the processing

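No called difference of the 8 members changed sign under an alternative. The calls of RN7SK, HEXIM1, CCNT1 and CCNT2 at 20 h against control, and of CDK9 and CCNT2 at 8 h, held in all 19 alternatives. Members called lower numbered 2 in place of 1 at 8 h (RN7SK added) with genes above the median level only, repeated quantile normalization or a trended and robust variance, and 1 to 2 on leaving out 1 array. At 20 h against control they numbered 2 (LARP7 added) with genes above the median level only, array weights, a trended and robust variance or the replicate block, and 1 to 2 on leaving out 1 array. At 20 h against 8 h they numbered 2 with genes above the median level only, only the 2 groups compared or array weights, and 1 to 2 on leaving out 1 array. Over all genes, 1388 were lower at 8 h, 844 with 8 h replicates 1 and 2 as 1 sample and 820 to 1411 on leaving out 1 array (820, 876 and 874 without 8 h replicates 1, 2 and 3). Repeated quantile normalization changed the 8 h split from 1310 higher and 1388 lower to 1143 and 1868. At 20 h against 8 h, 1314 to 2339 genes were higher on leaving out 1 array, against 1979, with the lowest count without 8 h replicate 3. Over the 113 listed genes, leaving out 1 array gave 9 to 16 higher (14 reported) and 5 to 10 lower (10 reported) at 8 h, and 11 to 22 lower (18 reported) at 20 h against 8 h. The lowest counts came without 8 h replicate 2 at 8 h, and without 8 h replicate 3 or 20 h replicate 2 at 20 h against 8 h. Beside these counts, 5.93% of all genes were higher and 6.28% lower at 8 h, and 13.6% were lower at 20 h against 8 h. HEXIM2 had no value with genes above the median level only, so 18 alternatives apply to it. The cause was not tested. Arrays with the same replicate number had deviations correlating between -0.318 and 0.111. No pairing by number is seen in these values, which cannot show that arrays were not handled in pairs. With the replicate block 1133 genes were higher and 1071 lower at 8 h, and apart from LARP7 no member's call changed. Arrays give no count depth, and HEXIM2 and the 7SK pseudogenes lie at levels where a change can be hidden.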

Other observations

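Of 13 noncoding RNAs made by RNA polymerase II, a list chosen after seeing the data and so no independent evidence, 9 were measured. In limma 6 of the 9 rose at 8 h and 7 at 20 h, where 5.93% and 13.1% of all genes were higher, and none was lower (also none at an unadjusted p under 0.05). Of the 9, 8 had a mean at or above the median over genes, where the shares called were larger. RNU12, of the minor spliceosome, rose by 1.95 at 8 h and by 2.67 at 20 h, and its partners RNU11 and RNU4ATAC rose by 1.19 and 0.69 at 8 h and by 2.19 and 1.30 at 20 h. RNU11 read 8.94 in control replicate 3 against 7.67 and 7.79 in the other controls. TERC, the telomerase RNA, rose by 0.62 at 20 h and differed by -0.05 at 8 h, while MALAT1 differed from control by -0.18 at 20 h.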
